A study of Mus musculus with 3 samples.

Results

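Suprabasal differentiating keratinocytes are the epidermal cells that have left the basal layer and begun to make the keratins Krt1 and Krt10. They were taken here from single-cell 3′ RNA libraries of mouse dorsal skin by measured values. A cell was a member if it held at least 10 UMIs (counted transcript molecules) of Krt1 and Krt10 together, more of this pair than of the basal keratins Krt14 and Krt5, UMIs of at most 1 of the 6 hair follicle genes Krt17, Krt79, Sox9, Lhx2, Postn and Fst, and at most 1 UMI of the immune genes Ptprc and Tyrobp together. The rule found 680 cells among 16604 kept cells, of 19366 deposited barcodes. These were 345 of 5309 kept cells in WTctrl (6.50%), 192 of 5225 in WTUV (3.67%) and 143 of 6070 in RPUV (2.36%). Exact binomial 95% intervals of these shares were 5.85% to 7.20%, 3.18% to 4.22% and 1.99% to 2.77%. All libraries had been enriched for immune cells with magnetic beads against Cd45, so the shares do not measure the makeup of skin.

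The study compared the skin of wild-type C57Bl/6 mice without ultraviolet B light (WTctrl), wild-type mice after 3 UVB exposures (WTUV), and RP mice after 3 exposures (RPUV). RP mice carry Rosa26-rtTA and Tre-Ptgs2, so that doxycycline drives rat Ptgs2, the gene of cyclooxygenase-2, in all tissues and not only in keratinocytes. All animals were 8-week-old males of the same strain with resting (telogen) hair follicles, and both irradiated skins were collected on the same day of the course. Whether the wild-type animals of these libraries drank doxycycline is not given in the sources used here. Each group was 1 library of 1 animal, so no test across animals was possible, and no difference below has a replicate check. WTctrl and RPUV were sequenced on 1 flow cell and WTUV on another, so run and group cannot be told apart in any comparison with WTUV.

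Keratinocytes are born in the basal layer, where Krt5 and Krt14 form the filaments and integrins hold the cells to the basement membrane. As they move up they switch to Krt1 and Krt10 in the spinous layer, then load the granular layer with loricrin, filaggrin and involucrin, and finally lose their nuclei and organelles to become the cornified barrier. In injured or irradiated epidermis, suprabasal cells are known to make Krt6 and Krt16, small proline-rich proteins and protease inhibitors of the stefin A family.

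The label was set beside its markers. Levels are given as CPM, a gene's UMIs scaled to the same total in every library. The 5 suprabasal markers Krt1, Krt10, Krtdap, Sbsn and Calm4 summed to 34017 CPM in the members of WTctrl, 54683 in WTUV and 55920 in RPUV. In basal keratinocytes of the same libraries, defined by Krt14 and Krt5 in place of Krt1 and Krt10, the sum was 1916, 4809 and 5678 CPM, and in immune cells it was 481, 318 and 358 CPM. Krt1 and Krt10 themselves belong to the rule, so their part of this gap was set in advance. Alone they made up 17302, 24231 and 28863 CPM in members and 1045, 1137 and 1597 CPM in basal keratinocytes. The rest of each sum came from Krtdap, Sbsn and Calm4. Krtdap, which the rule did not use, had a UMI in 335 of 345 members of WTctrl, 189 of 192 of WTUV and 142 of 143 of RPUV. A UMI of Krt10 alone marks little in these libraries, since 21.1%, 45.1% and 15.9% of immune cells also held one, at median depths of 4922, 12117 and 4836 UMIs.

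Markers outside the rule did not all change at its limits. Just inside the UMI limit Krtdap was at 3221 CPM in WTctrl, 27220 in WTUV and 4258 in RPUV, and just outside it at 3105, 19923 and 5600 CPM. Calm4 was at 1031, 12638 and 2249 CPM inside and at 1656, 5875 and 473 CPM outside. Sbsn was higher inside in all 3 libraries, over few cells. In WTctrl, 5 members with 10 to 14 UMIs of Krt1 and Krt10 held 5411 CPM of Sbsn, and 7 cells with 5 to 9 UMIs, which were not members, held 1863 CPM. In WTUV the 5 members and 5 other cells of these ranges held 8749 and 4853 CPM, and in RPUV the 6 members and 8 other cells held 4418 and 2130 CPM. Cells with 2 of the 6 hair follicle genes, left out by the rule, held 11839 CPM of Sbsn in WTctrl (8 cells), 3343 in WTUV (9 cells) and 4975 in RPUV (14 cells). Members with 1 such gene held 5561 CPM (29 cells), 9388 CPM (41 cells) and 7352 CPM (49 cells), below the cells left out in WTctrl and above them in the irradiated libraries. Members with 50% to 60% of their 4 keratin UMIs from Krt1 and Krt10 held 1343 CPM (19 cells), 2449 (4 cells) and 3549 (14 cells), and cells with 40% to 50% held 1113 (19 cells), 1194 (3 cells) and 2481 (9 cells). Those with 1 UMI of Ptprc and Tyrobp held 3632, 8624 and 6335 CPM, and cells with 2 or 3, left out, 11434, 2750 and 7185 CPM.

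The members differed in depth and in mitochondrial content between libraries. Their median was 7039 UMIs in WTctrl, 3000 in WTUV and 4163 in RPUV, where the medians of all kept cells were 4246, 10557 and 3774. Members of WTUV were thus shallow for their library, and those of WTctrl were not. Summed over members, the libraries held 2476695, 1642221 and 888606 UMIs. The mitochondrial share of UMIs spread from 0 to 10%, and a limit of 0.5%, chosen after seeing the data, was used to split the members. Under 0.5% were 96 members of WTctrl (27.8%), 142 of WTUV (74.0%) and 65 of RPUV (45.5%). Basal keratinocytes had 7.80%, 35.5% and 36.2% of cells under this limit, and immune cells 0.787%, 2.22% and 14.7%. Members under the limit held 131, 217 and 506 CPM of the nuclear RNA Malat1, against 13139, 9064 and 9865 CPM in the others. Because this mixture moved with the groups, levels of the main genes and lists are given below within both ranges, and the part of the mixture in any difference was not tested.

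**Figure D1:**
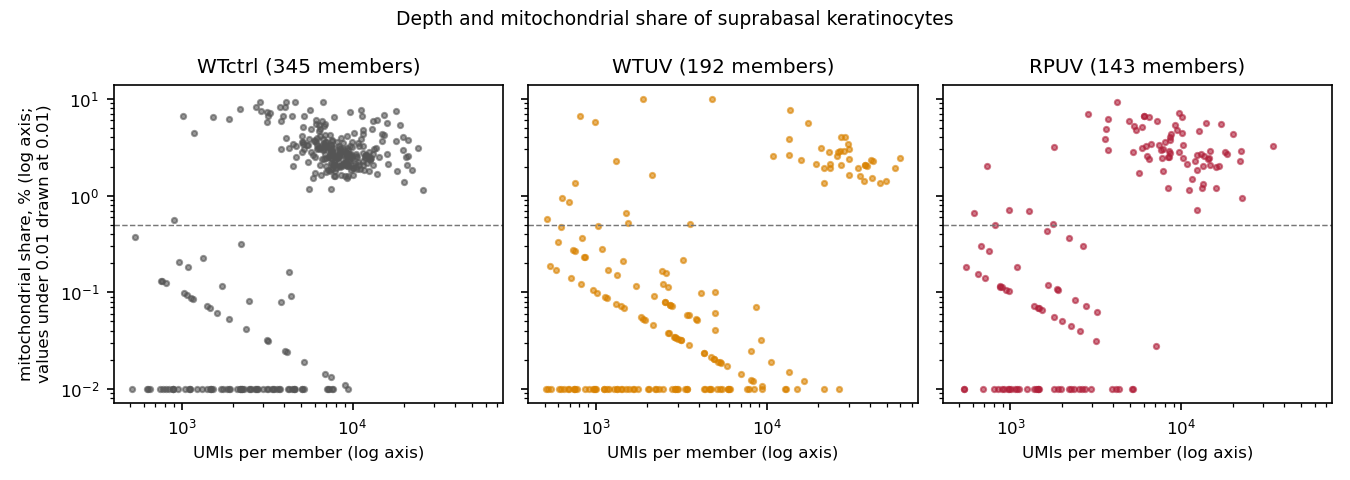
Each point is a member, with its total UMIs on the horizontal axis and its mitochondrial share in percent on the vertical axis, both log, in 1 panel per library. The dashed line marks 0.5%, with 27.8% of members under it in WTctrl, 74.0% in WTUV and 45.5% in RPUV.

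Markers of other cells were few in the members. The 8 immune markers summed to 118, 197 and 324 CPM in WTctrl, WTUV and RPUV, with at least 3 UMIs in 31, 49 and 30 members, where immune cells held 38503, 25626 and 23839 CPM, and no more than 1 UMI of Ptprc and Tyrobp was allowed by the rule. Of the 7 neutrophil markers, Retnlg and Ly6g had no UMI in any library and the sum was 11.7, 16.4 and 21.4 CPM. The 6 fibroblast markers summed to 90.4, 3.04 and 161 CPM, with at least 3 UMIs in 3, 1 and 3 members, and the 4 endothelial markers to 1.62, 1.22 and 33.8 CPM, with at least 3 UMIs in 1, 0 and 4 members. The 6 sebocyte markers summed to 160, 123 and 134 CPM with Awat2 at 0 throughout, the 4 red cell markers to 49.7, 79.2 and 12.4 CPM, and the 4 melanocyte markers to 0.404, 4.87 and 0 CPM. The 6 basal markers summed to 6208, 3501 and 6276 CPM, where basal keratinocytes held 27210, 28473 and 27615 CPM, and the 6 hair follicle markers to 79.5, 57.2 and 686 CPM. All of the hair follicle markers are genes of the rule, and the basal list holds Krt5 and Krt14 of the rule. Library pairs shared 8, 10 and 11 cell barcodes, none of them a member in both libraries of a pair.

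Gene differences were read from UMIs summed over the members of a library, as CPM. Of 4580 genes with a mean of at least 20 CPM over the 3 libraries, 133 (2.90%) were at least 2-fold higher and 165 (3.60%) at least 2-fold lower in WTUV than in WTctrl, on the log2 scale after adding 1 CPM. In RPUV against WTUV, 121 genes (2.64%) were higher and 89 (1.94%) lower, and in RPUV against WTctrl 221 (4.83%) were higher and 263 (5.74%) lower. The median log2 fold of all genes tested was −0.13, 0.08 and −0.05 in these comparisons. With scaling by the trimmed mean of M values it was 0.04, −0.05 and −0.01, and the split then was 188 higher and 91 lower, 86 higher and 146 lower, and 237 higher and 238 lower. Size factors gave 205 higher and 80 lower in the first comparison, 95 and 131 in the second and 267 and 199 in the third. The balance of higher and lower genes therefore depended on the scaling. Some small folds are also given below, and the direction of those near this shift in size can depend on the scaling. The 3 comparisons share libraries, so their values are set side by side and not related to each other. Intervals after a level are exact Poisson 95% intervals and those after a ratio are exact conditional binomial ones. They cover counting error only, and UMIs of 1 cell are not independent.

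**Figure D2:**
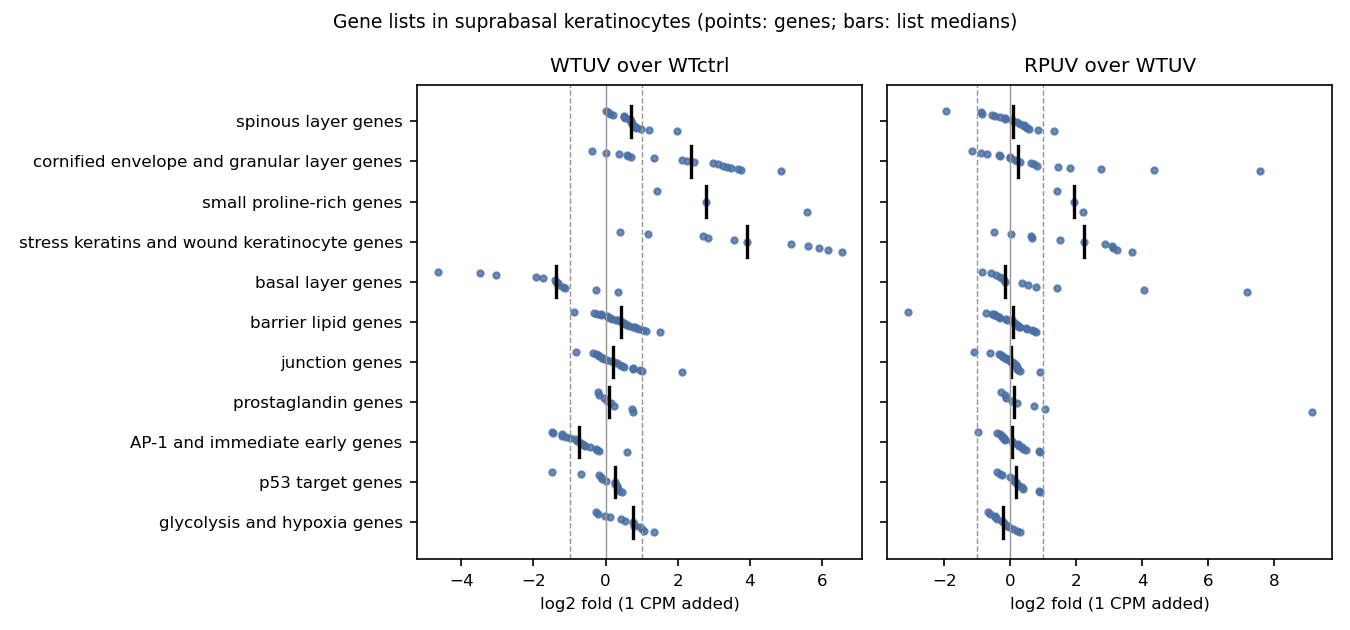
Each point is a tested gene of the list named on the left, at its log2 fold (1 CPM added) in WTUV over WTctrl or in RPUV over WTUV, with dashed lines at 2-fold and a black bar at the list median. The stress and cornified genes lie to the right in the first panel with medians of 3.91 and 2.36, and the basal layer genes to the left with a median of −1.38.

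Genes of the spinous layer were the common ground of the members. Of the 20 listed, 19 were tested, and their median log2 fold was 0.70 in WTUV over WTctrl, 0.07 in RPUV over WTUV and 0.57 in RPUV over WTctrl. Krtdap, a secreted keratinocyte differentiation protein, stood at 9353 CPM in WTctrl, 18573 in WTUV and 12551 in RPUV. Lgals7, which encodes galectin-7, was at 13316, 21830 and 29285 CPM and had a UMI in every member. Both were lowest in WTctrl, and all 19 genes were above a log2 fold of 0 in WTUV over WTctrl. Of these, 2 passed 2-fold there, against 2.90% of all genes. In RPUV over WTctrl 6 were higher and 1 lower, against 4.83% and 5.74%. In WTUV over WTctrl basal keratinocytes had 8 of the 19 higher and 1 lower. Hair follicle keratinocytes, which held at least 2 of the 6 hair follicle genes, had 1 higher and none lower. Of all 4580 genes, 115 and 69 were higher in these 2 cell sets.

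The 2 spinous genes past 2-fold in members of WTUV over WTctrl were Fabp5 and Dsc1. Fabp5, a fatty acid binding protein, was at 1291 CPM in WTctrl (interval 1247 to 1337), 2953 in WTUV (2871 to 3038) and 7474 in RPUV (7295 to 7655). It was 2.29-fold (2.19 to 2.39) higher in WTUV than in WTctrl and 2.53-fold (2.44 to 2.63) higher in RPUV than in WTUV, and its UMIs were spread over 295, 175 and 138 members. Dsc1, the desmocollin of the upper layers, was at 42.4, 171 and 257 CPM, which put both irradiated libraries above WTctrl by 4.04-fold (3.21 to 5.10) and 6.05-fold (4.78 to 7.70). Mt4, a metallothionein of stratified epithelia, went the other way in RPUV. It was at 1258 CPM in WTctrl, 2110 in WTUV and 546 in RPUV, a ratio of 0.259 (0.235 to 0.285) in RPUV over WTUV, and RPUV was lowest both in members under 0.5% mitochondrial UMIs (733, 2133 and 431 CPM) and in the others (1322, 2099 and 564 CPM). Krt77, a keratin of suprabasal cells, was at 4210, 6011 and 3221 CPM.

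The stress keratins and wound genes had the largest median of the 22 lists in each of the 3 comparisons, in sums over all members. Of 26 listed genes, 11 were tested. In WTUV over WTctrl 10 of 11 were at least 2-fold higher and none lower (median log2 3.91), where 2.90% of all genes were higher. In RPUV over WTctrl 11 of 11 were higher (median 6.05), against 4.83% of all genes, and in RPUV over WTUV 7 of 11 were higher (median 2.23), against 2.64%. The last of these rested on how members were chosen and weighed. Under 0.5% mitochondrial UMIs 3 were higher and 2 lower in RPUV than in WTUV (median 0.20), where 394 and 826 of all 4580 genes were. In the other members 9 were higher and none lower (median 3.90), where 138 and 128 of all genes were. By the mean over members the median was −0.25. In WTUV over WTctrl both ranges gave higher genes, 10 of 11 under 0.5% (median 4.77) and 8 of 11 above (median 2.23). Of all 4580 genes, 352 and 157 were higher in these ranges. The hair follicle markers also stood higher in RPUV (686 CPM) than in WTUV (57.2 CPM), with at least 3 UMIs in 14.7% and 5.21% of members. All of these markers are genes that the rule limits, so their values are a description only, and their part was not tested.

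Krt16, the type I stress keratin, was at 7.67 CPM in WTctrl (4.62 to 12), 529 in WTUV (494 to 565) and 2483 in RPUV (2380 to 2588). It had a UMI in 2 of 345, 55 of 192 and 58 of 143 members, so WTctrl was nearly without it and in the irradiated libraries a part of the members carried it. The ratio was 68.9 (43.9 to 115) in WTUV over WTctrl and 4.70 (4.34 to 5.09) in RPUV over WTUV. After thinning each cell to 2000 UMIs and leaving out 49, 69 and 49 shallower members, Krt16 was seen in 0.338%, 14.6% and 37.2% of members. Immune cells, which should lack it, showed it in 0%, 1.30% and 3.18% after the same thinning, so the members stood above this background in both irradiated libraries. Its partners of type II behaved alike. Krt6a was at 0.808, 86.5 and 637 CPM and Krt6b at 0.808, 130 and 1121 CPM. The 2 UMIs of each in WTctrl came from a single member, which gave Krt6a a ratio of 107 (29.1 to 893) in WTUV over WTctrl, and Krt6b one of 161 (44.1 to 1341). By range, Krt6b was at 0, 400 and 854 CPM under 0.5% and at 0.905, 5.35 and 1163 CPM above. These genes are near-identical copies, so reads could be split between them in counting.

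How much higher RPUV was than WTUV depended on how cells were weighed. In the sums above, deep cells count most. As the mean over members of each cell's own CPM, Krt16 was at 26.3 in WTctrl, 2232 in WTUV and 1872 in RPUV, so WTUV and RPUV changed places and both stayed far above WTctrl. By mitochondrial range, Krt16 in members under 0.5% was at 48.6, 1355 and 1560 CPM, and in the other members at 2.72, 145 and 2627 CPM. The difference between RPUV and WTUV thus lay in the members with 0.5% or more, 50 in WTUV and 78 in RPUV, and the difference from WTctrl was present in both ranges. Basal keratinocytes, a separate set of cells, held 9.90, 2339 and 2149 CPM of Krt16, where the irradiated libraries were also close to each other. Over the stress list in RPUV over WTUV, they had 4 of 11 genes higher and 1 lower (median log2 0.17). Hair follicle keratinocytes had 8 of 11 higher and none lower (median 1.53). Of all 4580 genes, 297 were higher and 227 lower in the basal cells, and 143 and 149 in the hair follicle cells.

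**Figure D3:**
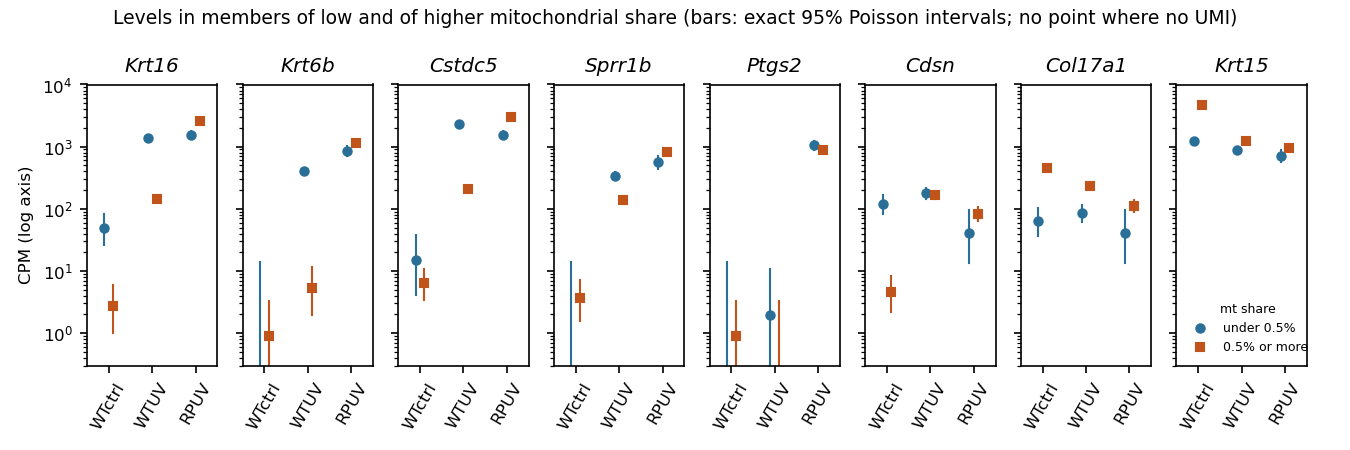
Levels of 8 genes in CPM (log axis) are drawn for each library, as blue circles for members with under 0.5% mitochondrial UMIs and orange squares for members with 0.5% or more, with exact 95% Poisson intervals. Krt16, Krt6b and Cstdc5 differ between WTUV and RPUV mainly in the squares, Ptgs2 is high only in RPUV in both ranges, and Cdsn and Krt15 differ between WTctrl and WTUV mainly in the squares.

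The stefin A genes, inhibitors of cysteine proteases, lie together on chromosome 16 (GRCm38, 36119946 to 36455392). All 5 tested genes of the cluster, Csta1, Cstdc5, Stfa1, Stfa2 and Stfa3, were at least 2-fold higher in WTUV than in WTctrl, against 2.90% of all genes. The 120 bases before the start of 4 of them are shown. In capitals is the longest run that these 4 stretches share, 12 bases, which was found by searching them for it. They are printed 5′ to 3′ on the strand of each gene, from RefSeq GRCm38.p6 (Cstdc5 chr16:36367571-36367690, minus strand, Stfa1 chr16:36277028-36277147, plus strand, Stfa2 chr16:36408364-36408483, minus strand, Stfa3 chr16:36455393-36455512, minus strand).
Cstdc5: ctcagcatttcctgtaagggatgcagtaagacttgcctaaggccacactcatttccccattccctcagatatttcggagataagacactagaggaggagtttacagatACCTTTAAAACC
Stfa1: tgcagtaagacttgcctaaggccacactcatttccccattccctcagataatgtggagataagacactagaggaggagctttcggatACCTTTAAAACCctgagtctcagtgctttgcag
Stfa2: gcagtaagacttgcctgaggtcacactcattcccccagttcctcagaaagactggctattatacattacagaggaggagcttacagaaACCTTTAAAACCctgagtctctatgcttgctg
Stfa3: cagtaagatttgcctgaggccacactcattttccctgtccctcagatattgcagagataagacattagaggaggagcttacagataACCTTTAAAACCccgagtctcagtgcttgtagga
The run ACCTTTAAAACC was found on either strand in the 250 bases before the start of 9 of 27025 genes (0.0333%), namely Stfa1, Stfa2, Stfa3, Cstdc5, Cstdc4, Csta3, Stfa2l1 and the gene models Gm7260 and Gm39539. Csta1, the other tested gene of the cluster, was not among these 9, and a part of the run in the levels was not tested. The run ends at the annotated start in Cstdc5 and begins 32 to 34 bases before the start in the other 3 shown. Aligned bases of these 4 stretches were identical in 57.0% to 84.6%, the most for Stfa1 with Stfa3. The likeness of the copies also means that their counts are uncertain, since reads of 1 gene can be given to another.

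Cstdc5 was at 7.27 CPM in WTctrl (4.31 to 11.5), 882 in WTUV (837 to 928) and 2816 in RPUV (2706 to 2928), with a UMI in 10, 86 and 70 members. Its ratio was 121 (76.5 to 205) in WTUV over WTctrl and 3.19 (2.99 to 3.41) in RPUV over WTUV. After thinning it was seen in 1.35%, 24.4% and 50% of members, and in 0%, 3.21% and 4.49% of immune cells. As for Krt16, the order of WTUV and RPUV turned with the mitochondrial range. Cstdc5 was at 15, 2334 and 1535 CPM in members under 0.5% and at 6.34, 208 and 3017 CPM in the others. The mean over members was 18.7, 3073 and 1800 CPM.

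Stfa1 was at 13.3, 168 and 481 CPM, and Stfa3 at 6.86, 278 and 443 CPM. Stfa2 had no UMI in WTctrl and stood at 92.6 CPM in WTUV and 65.3 in RPUV, which is at least 76.4-fold higher and at least 53.9-fold higher than 3 UMIs over the members of WTctrl. Of the 456 UMIs of Stfa3 in WTUV, 207 were in 1 member, and of the 58 of Stfa2 in RPUV, 38 were. Csta1, at 24.2, 197 and 160 CPM, differed by 8.14-fold (6.17 to 10.9) between WTUV and WTctrl. The irradiated libraries were above WTctrl for all 5 genes. Between these libraries only Cstdc5 and Stfa1 passed 2-fold, both higher in RPUV, against 2.64% of all genes higher and 1.94% lower.

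Other wound genes were less evenly spread. S100a8, a subunit of the alarmin calprotectin, had no UMI in WTctrl and 23 and 125 UMIs in WTUV and RPUV, of which 101 in RPUV were in 1 member. Without the highest member of each library it was at 0, 11 and 28.1 CPM. Immune cells held 22.2, 60.9 and 1115 CPM of S100a8, also highest in RPUV. Its partner S100a9 was at 1.21, 13.4 and 124 CPM, with 103 of 110 UMIs of RPUV in 1 member. Il1rn, the antagonist of the interleukin-1 receptor, was carried by 50, 50 and 35 members and stood at 24.2, 56.0 and 57.4 CPM, a ratio of 2.31 (1.65 to 3.26) in WTUV over WTctrl. Klk6, a kallikrein protease, had 0, 10 and 80 UMIs, the last of them in 3 members.

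**Figure D4:**
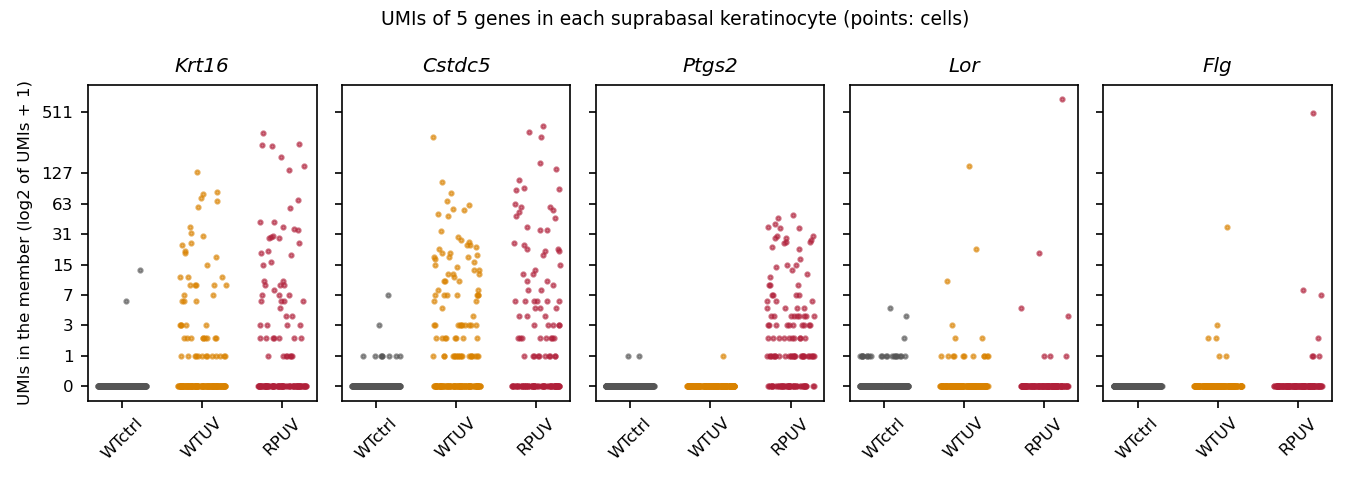
Each point is a member, at its UMIs of the gene named above the panel on a log2 scale (UMIs + 1), by library. Krt16, Cstdc5 and Ptgs2 are spread over many members of RPUV (58, 70 and 93), whereas 697 of 729 UMIs of Lor and 504 of 524 of Flg in RPUV lie in 1 member.

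Genes of the cornified envelope and the granular layer were higher in both irradiated libraries. Of 42 listed genes, 18 were tested, of which 12 were at least 2-fold higher in WTUV than in WTctrl and none lower (median log2 2.36), against 2.90% of all genes higher. In RPUV over WTctrl 14 were higher (median 2.56), against 4.83%, and in RPUV over WTUV 5 were higher and 1 lower (median 0.24), against 2.64% and 1.94%. Many of these genes and the small proline-rich genes lie in the epidermal differentiation complex on chromosome 3 (90511034 to 93564645). Of its 20 tested genes, 10 were higher and none lower in WTUV over WTctrl, against 2.90% and 3.60% of all genes. In RPUV over WTUV 10 were higher and 1 lower, against 2.64% and 1.94%. In RPUV over WTctrl 13 of the 20 genes of the complex were higher and none lower, against 4.83% and 5.74%. The 150 bases before the start of 4 of them are shown with the AP-1 motif TGANTCA in capitals, because AP-1 factors are known to drive genes of this complex (RefSeq GRCm38.p6, 5′ to 3′ on the gene's strand: Sprr1a chr3:92485882-92486031, minus, Sprr1b chr3:92438780-92438929, minus, Lor chr3:92083143-92083292, minus, Flg chr3:93273396-93273545, plus).
Sprr1a: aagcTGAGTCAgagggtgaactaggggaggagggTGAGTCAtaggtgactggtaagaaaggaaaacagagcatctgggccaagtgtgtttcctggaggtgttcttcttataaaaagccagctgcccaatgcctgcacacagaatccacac
Sprr1b: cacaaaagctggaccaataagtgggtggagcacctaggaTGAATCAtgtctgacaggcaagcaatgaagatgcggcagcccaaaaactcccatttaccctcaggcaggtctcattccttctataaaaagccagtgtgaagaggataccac
Lor: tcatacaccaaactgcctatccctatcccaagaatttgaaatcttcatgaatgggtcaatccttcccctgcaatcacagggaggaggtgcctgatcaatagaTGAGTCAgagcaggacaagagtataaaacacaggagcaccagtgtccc
Flg: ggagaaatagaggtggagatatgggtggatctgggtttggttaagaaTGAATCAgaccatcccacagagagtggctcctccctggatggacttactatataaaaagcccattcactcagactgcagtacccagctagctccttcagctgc
Within 250 bases before the start, on either strand, the motif was in 8 of the 17 tested genes of the complex with a sequence (47.1%), in 6.87% of all 27025 genes and in 4.50% of the 3690 tested genes with a sequence. It occurs 2 times in the stretch of Sprr1a. Among genes higher in WTUV than in WTctrl it was in 16 of 97 (16.5%) and among lower ones in 7 of 131 (5.34%). The motif is a palindrome apart from its central base, so both strands give the same positions. Its letters describe these windows and do not show binding.

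Ivl, which encodes involucrin, was at 25 CPM in WTctrl, 142 in WTUV and 142 in RPUV, in 33, 42 and 24 members. Klk7, a protease of corneocyte shedding, was at 34.3, 392 and 385 CPM, a ratio of 11.4 (9.09 to 14.5) in WTUV over WTctrl and of 0.983 (0.860 to 1.12) in RPUV over WTUV. In both the irradiated libraries were above WTctrl. The 60 UMIs of 1 member made up much of the 126 of Ivl in RPUV, and without the highest member of each library Ivl was at 22.6, 111 and 77.3 CPM. Cdsn, the corneodesmosin of the outermost junctions, was at 17.0, 171 and 76.5 CPM, highest in WTUV, and was the 1 listed gene at least 2-fold lower in RPUV than in WTUV (ratio 0.447, 0.338 to 0.585). Klk5 followed the same order at 58.1, 255 and 137 CPM. Casp14, the caspase of cornification, was at 29.9, 77.9 and 120 CPM, and at 28.4, 73.3 and 66.7 CPM without the highest members, since 50 of its 107 UMIs in RPUV were in 1 member. Asprv1, a protease that cleaves profilaggrin, was at 72.3, 352 and 971 CPM, and at 68.1, 295 and 379 CPM without them.

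These differences from WTctrl came mainly from members with 0.5% or more of mitochondrial UMIs. In that range 14 of 18 genes were at least 2-fold higher in WTUV than in WTctrl (median log2 3.10), where 157 of all 4580 genes were. Under 0.5% 3 were higher and 2 lower (median 0.48), where 352 and 411 of all genes were. Cdsn, for example, was at 4.53, 168 and 82.0 CPM in the first range and at 120, 177 and 41.5 CPM in the second. Klk7 was at 9.50, 393 and 350 CPM and at 239, 388 and 606 CPM. Cdsn and Klk7 in WTctrl were thus higher in members of low mitochondrial share. Casp14 was not, at 29.9 CPM in both ranges of WTctrl, and of the 32 UMIs of Lor in WTctrl 21 were in members above the limit, with levels of 41.2 CPM below it and 9.50 CPM above.

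Lor, Flg, Hrnr and Rptn, which encode the bulk proteins loricrin, filaggrin, hornerin and repetin, turned on single cells. Lor was at 12.9, 121 and 820 CPM, and 149 of 199 UMIs in WTUV and 697 of 729 in RPUV were in 1 member each. Without the highest member of each library it was at 10.9, 31.2 and 37.5 CPM. Flg had no UMI in WTctrl, 46 in WTUV and 524 in RPUV, of which 37 and 504 were in 1 member, and without these it stood at 0, 5.69 and 23.4 CPM. Rptn had 170 UMIs in RPUV, 167 of them in 1 member, and none elsewhere. Hrnr was at 4.04, 67.0 and 110 CPM, and at 1.62, 40.4 and 4.68 CPM without the highest members. By range Hrnr was at 29.9, 15.4 and 16.6 CPM under 0.5% and at 0.905, 90.9 and 125 CPM above. The same member of RPUV, the deepest of that library with 34488 UMIs, held most UMIs of Lor, Flg, Rptn, Hrnr, S100a8, Asprv1 and Cnfn, and was the highest for Ivl, Casp14, Klk7 and Sprr1b. In RPUV, 16 of the 121 genes higher than in WTUV had over 50% of their UMIs in 1 member, and in WTUV 7 of the 133 genes higher than in WTctrl did.

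The small proline-rich genes, which crosslink into the envelope, had 3 members tested of 14 in the files. All 3 were higher in each comparison, against 2.90% of all genes in WTUV over WTctrl, 2.64% in RPUV over WTUV and 4.83% in RPUV over WTctrl. Under 0.5% mitochondrial UMIs 1 of 3 was higher in RPUV than in WTUV, where 394 of all 4580 genes were, and all 3 were in the other cells, where 138 were. In WTUV over WTctrl all 3 were higher under 0.5%, where 352 of all genes were. In the other cells 2 were higher and 1 lower, where 157 and 114 were. Sprr1a was at 20.2 CPM in WTctrl (15 to 26.6), 146 in WTUV (128 to 165) and 671 in RPUV (618 to 727), in 18, 39 and 50 members. Sprr1b was at 3.23, 202 and 776 CPM, with ratios of 62.6 (31.4 to 146) and 3.84 (3.36 to 4.39), and 309 of its 690 UMIs in RPUV in 1 member. Sprr2a3 was at 5.25, 15.8 and 43.9 CPM. The order from WTctrl to WTUV to RPUV held for all 3 in the sums, and by the mean over members Sprr1b was at 13.4, 580 and 496 CPM, with RPUV below WTUV. In RPUV over WTUV basal keratinocytes had none of the 3 higher and 2 lower (median log2 −1.04), where 297 and 227 of all genes were. Hair follicle keratinocytes had 1 higher and none lower (median 0.94), where 143 and 149 were.

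Most basal layer genes were lower in WTUV. Of 13 tested genes, 11 were at least 2-fold lower in WTUV than in WTctrl and none higher (median log2 −1.38), against 3.60% of all genes. In RPUV over WTctrl 6 were lower and 1 higher (median −0.77), against 5.74% and 4.83%. Krt15, a keratin of quiescent basal cells, was at 4253 CPM in WTctrl (4172 to 4335), 1121 in WTUV (1070 to 1173) and 913 in RPUV (851 to 978), in 252, 72 and 58 members. Both irradiated libraries were below WTctrl, with ratios of 0.264 (0.251 to 0.277) and 0.215 (0.200 to 0.231). Col17a1, a collagen of the hemidesmosome, was at 405, 184 and 101 CPM. Dst, its plakin partner, was at 436, 165 and 122 CPM, and Trp63, the p63 transcription factor, at 248, 99.3 and 145 CPM. Igfbp3, a binding protein of insulin-like growth factors, was at 182, 21.3 and 19.1 CPM, in 142, 9 and 10 members.

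Here too the ranges differed. In members under 0.5%, which were most of WTUV, 2 of the 13 genes were higher and 4 lower in WTUV than in WTctrl (median log2 0.03). Of all 4580 genes, 352 were higher and 411 lower in that range. In the other members none was higher and 9 lower (median −1.13), where 157 and 114 of all genes were. Col17a1 was at 63.6, 84.5 and 41.5 CPM under 0.5% and at 446, 230 and 111 CPM above. Krt15 was at 1212, 886 and 705 CPM under 0.5% and at 4621, 1230 and 945 CPM above. Igfbp3 was at 78.6, 13.4 and 8.30 CPM and at 195, 25 and 20.8 CPM, so both were lower after irradiation in each range. Under 0.5%, WTUV and RPUV held 520481 and 120542 UMIs in all, so the levels of Igfbp3 there rest on very few UMIs. In basal keratinocytes Krt15 was at 9868, 4974 and 1320 CPM. The ratio of the fold in members to that in basal keratinocytes was 0.523 for WTUV over WTctrl. Sparc and Dcn of this list are also made by fibroblasts, and 70 of the 76 UMIs of Dcn in WTctrl and all 41 in RPUV were in 1 member.

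Ptgs2 marked the RP library. It was at 0.808 CPM in WTctrl (0.0978 to 2.92), 0.609 in WTUV (0.0154 to 3.39) and 910 in RPUV (849 to 975). These are 2, 1 and 809 UMIs in 2, 1 and 93 members, so the wild-type libraries were nearly without it and 65% of members of RPUV carried it. The ratio of RPUV over WTUV was 1495 with an interval of 268 to 59125. After thinning to 2000 UMIs, Ptgs2 was seen in 0%, 0% and 54.3% of members, where 0 of 123 members of WTUV allows up to 2.95% of members with a UMI at this depth, which does not limit how many express the gene weakly. No member held more than 48 UMIs, and the level in RPUV was 1054 CPM under 0.5% mitochondrial UMIs and 888 CPM above. Basal keratinocytes of RPUV held 547 CPM and immune cells 565 CPM. The transgene is a rat sequence, and the counts are of reads assigned to Ptgs2, in which transgene and mouse gene cannot be told apart.

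Of the other prostaglandin genes, 7 were tested and 1, Ptges, passed 2-fold in RPUV over WTUV, against 2.64% of all genes higher and 1.94% lower. Counting Ptgs2, 2 of 8 were higher in members, 4 in basal keratinocytes and 3 in hair follicle keratinocytes, and none was lower. Of all 4580 genes, 121, 297 and 143 were higher in these cell sets. Ptges, a prostaglandin E synthase, was at 17.8 CPM in WTctrl (12.9 to 23.8), 31.1 in WTUV (23.1 to 40.8) and 65.3 in RPUV (49.6 to 84.4), in 35, 32 and 38 members, with a ratio of 2.10 (1.42 to 3.12) in RPUV over WTUV. Ptgs1, the constitutive cyclooxygenase, was at 199, 328 and 296 CPM, above the 23.6, 35.3 and 59.2 CPM of basal keratinocytes in all 3 libraries. Pla2g4a, a phospholipase that frees arachidonic acid, was at 50.5, 51.8 and 42.8 CPM, and its ratios of 1.03 (0.769 to 1.36) and 0.826 (0.548 to 1.22) include 1. Below the 20 CPM limit, Hpgd, which breaks prostaglandins down, was at 3.63, 3.65 and 30.4 CPM, with 19 of 27 UMIs of RPUV in 1 member. Of the prostaglandin E receptors, Ptger4 was at 19.4, 7.92 and 7.88 CPM, and Ptger1, Ptger2 and Ptger3 had at most 1 UMI in any library, so differences in them were not detectable at this depth.

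**Figure D5:**
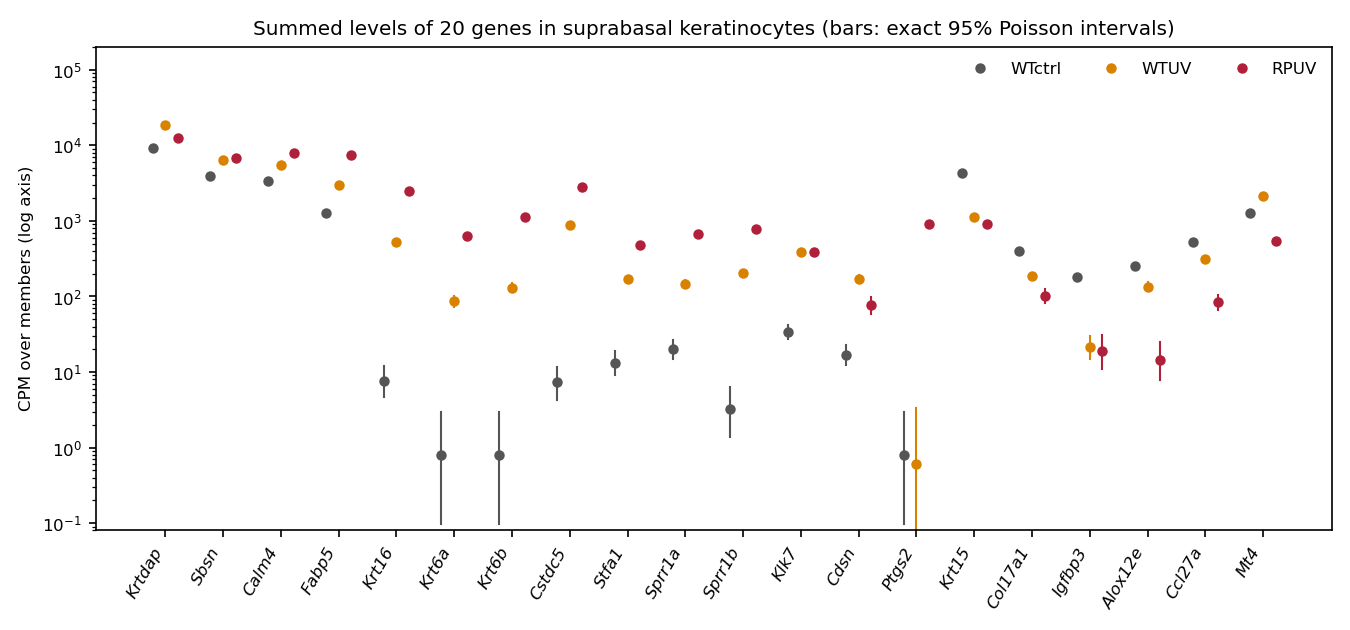
Summed levels in CPM (log axis) of 20 genes over the members of each library, with exact 95% Poisson intervals as bars, hidden by the point where narrow. Krt16, Krt6a, Krt6b, Cstdc5, Stfa1, Sprr1a and Sprr1b lie lowest in WTctrl and highest in RPUV, Ptgs2 is near 0 outside RPUV, and Krt15, Col17a1 and Igfbp3 are highest in WTctrl.

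Most genes of the lipid barrier stayed within 2-fold, but over all members the share higher than in WTctrl exceeded that of all genes. Of 24 tested, 3 were at least 2-fold higher in WTUV than in WTctrl (median log2 0.44), against 2.90% of all genes. In RPUV over WTUV none was higher and 1 lower (median 0.07), against 2.64% and 1.94%. In RPUV over WTctrl 6 were higher and 1 lower (median 0.42), against 4.83% and 5.74%. Under 0.5% mitochondrial UMIs 1 was higher and 2 lower in WTUV over WTctrl (median −0.02), where 352 and 411 of all 4580 genes were. In RPUV over WTctrl 1 was higher and 3 lower there (median −0.47), where 469 and 1017 were. In the other members 2 were higher and none lower in WTUV over WTctrl (median 0.38), where 157 and 114 were. In RPUV over WTctrl 7 were higher and 1 lower (median 0.67), where 267 and 262 were. Elovl1, an elongase of very long chain fatty acids, was at 96.9, 277 and 197 CPM. Cers3, a ceramide synthase, was at 14.1, 29.8 and 27.0 CPM, and Smpd1, a sphingomyelinase, at 10.1, 23.1 and 40.5 CPM. The exception in the other direction was Alox12e, an epidermal lipoxygenase of arachidonic acid. It was at 251 CPM in WTctrl (231 to 271), 135 in WTUV (117 to 154) and 14.6 in RPUV (7.79 to 25), in 165, 57 and 10 members. RPUV was lowest, with a ratio of 0.109 (0.0570 to 0.190) to WTUV, and was lowest in both mitochondrial ranges (460, 173 and 24.9 CPM under 0.5%, 225, 117 and 13.0 CPM above). The 24.9 CPM rests on very few UMIs, since members of RPUV in that range held 120542 UMIs in all. Alox12b, the lipoxygenase of the barrier, was at 1.21, 20.7 and 16.9 CPM, a ratio of 17.1 (5.38 to 87) in WTUV over WTctrl that rests on 3 UMIs in WTctrl.

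Secreted signals were sparse. Ccl27a, the skin chemokine of T cells, was at 529 CPM in WTctrl, 309 in WTUV and 83.3 in RPUV, lowest in RPUV with a ratio of 0.270 (0.208 to 0.345) to WTUV. Basal keratinocytes held 1319, 1538 and 114 CPM of it. More than 1 gene model carries this symbol in the files, so its count is uncertain. Cxcl14 was at 140, 60.9 and 40.5 CPM and Cxcl16 at 16.2, 33.5 and 38.3 CPM. Of 30 cytokine and chemokine genes in the files, only 4 reached 20 CPM. Il1f9, which encodes interleukin-36 gamma, was below that limit at 0.808, 7.31 and 16.9 CPM, and the 20 UMIs of Il1f6 in RPUV were in 1 member.

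Among regulators, Hes1, a target of Notch, was at 353, 200 and 113 CPM, and Notch1 at 114, 62.7 and 49.5 CPM, both lowest in RPUV. Id1, an inhibitor of helix-loop-helix factors, was at 350, 146 and 158 CPM. Cebpb, a factor of differentiation, was at 227, 337 and 512 CPM, highest in RPUV. Of 24 tested genes of this list, 1 was higher and 2 lower in WTUV over WTctrl, namely Hopx above and Trp63 and Id1 below, against 2.90% and 3.60% of all genes, so these counts were near the background. Klf9, a factor induced by glucocorticoids, was at 163, 62.1 and 31.5 CPM. Hlf, a factor of the circadian clock, was at 145, 49.3 and 33.8 CPM, and Txnip, an inhibitor of thioredoxin, at 225, 59.7 and 37.1 CPM. These 3 were lower than in WTctrl in both irradiated libraries.

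Some early response genes were lower in the irradiated libraries. Of 18 tested AP-1 and immediate early genes, 5 were at least 2-fold lower in WTUV than in WTctrl and none higher (median log2 −0.73), against 3.60% of all genes lower, and 6 were lower in RPUV than in WTctrl (median −0.80), against 5.74%. Fosb was at 417, 152 and 200 CPM, Fos at 1098, 550 and 492 CPM, and Btg2, which p53 also induces, at 455, 161 and 296 CPM. Btg2 was the 1 gene past 2-fold among 13 tested p53 targets in WTUV over WTctrl. Cdkn1a, the p21 inhibitor of the cell cycle, was at 987, 904 and 686 CPM, and Mdm2 at 30.3, 39.6 and 45 CPM with a ratio of 1.31 (0.923 to 1.85) in WTUV over WTctrl. None of the 13 tested was 2-fold higher in WTUV than in WTctrl over all members, against 2.90% of all genes. Among members under 0.5% mitochondrial UMIs 1 of 13 was, where 352 of all 4580 genes were, so this count was near the background.

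Of 13 tested glycolytic genes, 3 were 2-fold higher in WTUV than in WTctrl and none lower (median log2 0.77), against 2.90% of all genes, namely Hk2, Gapdh and Eno1. Gapdh was at 323, 680 and 583 CPM and Ldha at 224, 384 and 468 CPM. In basal keratinocytes Gapdh was at 542, 1132 and 1087 CPM, and the ratio of the folds of WTUV over WTctrl in both cell sets was 1.01. Of 12 tested interferon and MHC class I genes, 2 were lower in WTUV than in WTctrl, the proteasome subunits Psmb8 (162, 73.1 and 79.9 CPM) and Psmb9 (128, 58.5 and 54.0 CPM), against 3.60% of all genes lower. In RPUV over WTUV 3 were higher, Bst2, Ifi27l2a and Ifitm3, and none lower, against 2.64% higher. Basal keratinocytes had none of the 12 higher and 3 lower there (median log2 −0.33), where 297 and 227 of all 4580 genes were. Hair follicle keratinocytes had none higher and 1 lower (median −0.57), where 143 and 149 were. Heat shock genes gave no call among 11 tested in any comparison. Of 5 clock genes, Bhlhe40 was 5.20-fold (2.88 to 9.85) higher in RPUV than in WTUV, at 16.6, 9.74 and 50.6 CPM. Hal, which makes urocanate from histidine, was at 116, 209 and 264 CPM, and the serpin Serpinb12 at 54.5, 95 and 172 CPM.

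Of the remaining genes with the largest folds, several moved with markers of other cells or with the library. Fabp4, Sparc, Igfbp7, Vim and Lgals1 were highest in RPUV, where fibroblast and endothelial markers were also highest. Fabp4, a lipid binding protein of fat and vessel cells, was at 45.2, 0.609 and 341 CPM with 153 of 303 UMIs of RPUV in 1 member, and Igfbp7 at 18.6, 4.26 and 159 CPM in 11, 3 and 10 members. The part of those other cells in the difference was not tested. Of genes highest in WTUV, Lars2 was at 438, 820 and 335 CPM, Fam25c at 2115, 4742 and 1884 CPM and Tuba1b at 88.4, 145 and 47.3 CPM. Lars2 had the same order in basal keratinocytes (430, 721 and 294 CPM) and in immune cells (662, 1016 and 464 CPM). Pyy, a peptide hormone, was at 167, 15.8 and 0 CPM, in 33, 1 and 0 members, and Clca3a2, a secreted protein of the chloride channel accessory family, at 1938, 923 and 336 CPM.

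Along the switch from basal to suprabasal keratins, members with over 95% of their 4 keratin UMIs from Krt1 and Krt10 were 254 of WTctrl (73.6%), 129 of WTUV (67.2%) and 75 of RPUV (52.4%). After thinning to 2000 UMIs the shares were 70.9% (65.4 to 76.1), 74.0% (65.3 to 81.5) and 46.8% (36.4 to 57.4), with RPUV lowest in both. The shares use the rule's own genes and are a description. Krt16, which the rule did not use, was lower at the far end in both irradiated libraries. In WTUV it was at 795 CPM in members with 50% to 80%, 1163 with 80% to 95% and 261 above, and in RPUV at 3195, 3445 and 1354 CPM. Cstdc5 was at 2106, 1839 and 269 CPM in WTUV and at 4346, 4257 and 776 CPM in RPUV. In WTctrl all 19 UMIs of Krt16 were in members above 95%.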

How the data were processed

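Single-cell 3′ libraries of mouse dorsal skin, 1 per group, were analysed. The values the authors deposited are raw UMI counts from Cell Ranger 6.1.1 on mm10, not normalized. Kept cells had a mitochondrial share under 10%, over 200 genes and under 4000 genes (6000 in WTUV), after the study's methods. No doublets were removed. UMIs were summed over members and scaled to CPM on all 32285 genes. Genes with a mean of at least 20 CPM were tested, without those of the member rule, and a gene was called past 2-fold with 1 CPM added. A library at 0 was set to 3 UMIs over the group. Named genes were the 12 highest and 12 lowest per comparison with a mean of at least 50 CPM, members of 22 gene lists, and Ptgs2. Malat1 was chosen after its values were seen. A few genes that the rule named are not reported here. Members and lists were chosen with earlier results of these data known. The fold computation was tested on simulated counts. With 1 library per group no p-value was computed. Python 3.11.15, numpy 2.4.6, scipy 1.17.1, pandas 2.3.3, matplotlib 3.10.9 and, for alternative scaling, edgeR 4.0.16 were used. Sequences are from RefSeq GRCm38.p6, the assembly of mm10.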

Additional observations from a re-analysis of the deposited data

Results flagged for a closer look

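Cells that met every keratin, hair follicle and immune clause but were left out by the cell filters numbered 97 in WTctrl, 17 in WTUV and 44 in RPUV, and lie outside the comparisons above. Of these, 89, 12 and 13 had too many genes and 8, 5 and 31 too high a mitochondrial share. Their median depth was 36938, 68372 and 3307 UMIs. Krt16 stood at 0.842 CPM in those of WTctrl, 1508 in those of WTUV and 3625 in those of RPUV, and Cstdc5 at 5.62, 2447 and 1997 CPM. Ptgs2 was at 1.97, 4.32 and 816 CPM, again high in RPUV alone. Krt15 was at 3263, 2444 and 881 CPM. Lor was at 170, 19.9 and 44.2 CPM, highest in WTctrl, where the members had it lowest.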

How the results depend on the processing

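No paired analysis was possible because each group has 1 library, and for the same reason no replicate could be left out. A turn in direction was counted only where the value in the report passed 2-fold. Smaller folds that changed sign are among the like or the moved values. Of 2904 comparisons of named genes with an alternative, 2377 stayed within the limits set for a like value, 506 moved and 21 turned direction, and of 1452 list medians 1228, 220 and 4 did. The cause was not tested for any of them, except that a lower limit on level adds genes and a choice of members leaves fewer cells, by construction. Values below are log2 folds or counts of genes past 2-fold, higher then lower.

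With each cell's own CPM averaged over members, 8 values that passed 2-fold turned. In RPUV over WTUV the stress list was at −0.25, the small proline-rich list at −0.19, Krt16 at −0.25, Cstdc5 at −0.77, Stfa1 at −0.29, Sprr1b at −0.23 and S100a8 at −0.92, and Vim was at 0.57 in WTUV over WTctrl. The counts were 227 and 509 in WTUV over WTctrl, 361 and 265 in RPUV over WTUV, and 409 lower in RPUV over WTctrl. In members under 0.5% mitochondrial UMIs, a split added after seeing the data, the basal layer list was at 0.10 in WTUV over WTctrl, Col17a1 at 0.40, Hrnr at −0.92, Igfbp7 at 1.55 and Vim at 1.0. In RPUV over WTUV Cstdc5 was there at −0.60, Stfa1 at −0.72 and S100a8 at −0.03, and in RPUV over WTctrl Golim4 at 0.33 and Hrnr at −0.81. These medians are over the genes that pass 20 CPM in that range, so the basal layer value and the counts of all genes differ from those in the report. The counts were 210 and 320, 334 and 485, and 373 and 659, and members were 1.81%, 2.72% and 1.07% of kept cells. In members with 0.5% or more they were 4.69%, 0.957% and 1.29%, so the order of the libraries in the share of members depended on the split, and 137 genes were lower in RPUV than in WTUV.

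Leaving out the 5% deepest members put Lor at −0.05 and S100a8 at −0.43 in RPUV over WTUV. With at least 30 UMIs of Krt1 and Krt10, Fabp4 was at −1.55 in RPUV over WTctrl and members were 3.12% of WTUV. Thinning all cells to 2000 UMIs before the rule put Vim at 0.52 in WTUV over WTctrl and −0.37 in RPUV over WTUV, and Fabp4 at −0.14 in RPUV over WTctrl. It gave 2.92% members in WTUV and counts of 222 and 590, 523 and 302, and 474 lower. Allowing no UMI of Ptprc or Tyrobp gave 3.02% in WTUV, and requiring 2000 UMIs, added after seeing the data, 5.58%, 2.35% and 1.55%. The 4000-gene limit in every library gave 471 lower in WTUV over WTctrl and 270 higher in RPUV over WTUV.

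With the 20 CPM limit set anew on rescaled values, scaling by the trimmed mean of M values gave 90 lower in WTUV over WTctrl and 146 lower in RPUV over WTUV, and size factors 208 and 78 in WTUV over WTctrl. The splits in the report are over the 4580 genes of the unscaled values. A limit of 5 CPM gave 261 and 608, 483 and 384, and 499 and 839. A limit of 50 CPM gave 78 and 44, 48 and 40, and 117 and 105. All genes with a UMI gave 646 and 1459, 2113 and 1127, and 1711 and 1810, and put the cytokine list at 1.20 in RPUV over WTctrl. Neither scaling turned the direction of a list median or a named gene that passed 2-fold. Krt16, Cstdc5 and Krt15 kept their direction in WTUV over WTctrl under every alternative run.

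With 1 animal per group, animal and group cannot be told apart, nor can run and group for WTUV. Depth limits low genes, since 1 UMI in RPUV weighs more than in WTctrl, and free RNA in droplets was not removed.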
